A study of Mus musculus with 4 samples.

Results

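The genes described are Peg3, Ndn, Nnat, Snrpn, Magel2 and Impact, 6 imprinted genes outside the Dlk1-Dio3 domain. They were taken by name from a list and make up 6 of the 20136 genes in the count tables; all 6 had counts in all 4 libraries. The tables come from Drop-seq, which tags RNA inside droplets with a cell barcode and a unique molecular identifier (UMI), on punched tissue from the bed nucleus of stria terminalis, part of the extended amygdala. All mice were male wildtype C57BL/6J, kept on a reversed light cycle with standard chow, and each of the 4 libraries pooled the punches of 6 mice. There was no treatment or control group, so every comparison is between kinds of cells found in each library, and the n of each test is libraries (pools), not mice or cells.

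An imprinted gene is read mainly from the copy inherited from one parent, and in all 6 of these genes the mouse brain uses mainly the paternal copy. Many imprinted genes are active in brain and are known for effects on feeding, growth, maternal care and arousal. Peg3 encodes a zinc finger protein that binds DNA. Ndn (necdin) and Magel2 encode proteins of the MAGE family, which bind ubiquitin ligases; Magel2 is known to act with Trim27 and the retromer in sorting membrane proteins. Snrpn encodes SmN, a spliceosomal protein closely related to the product of Snrpb. Ndn, Magel2 and Snrpn lie in the mouse counterpart of the Prader-Willi region. Nnat (neuronatin) encodes a small membrane protein of the endoplasmic reticulum that acts on calcium pumps, and Impact encodes an inhibitor of the Gcn1-Gcn2 arm of the stress response that limits translation. The mice were of an inbred strain and the tables hold no alleles, so parental copies cannot be told apart.

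Positions are from GENCODE vM21 on GRCm38, in which all 6 are protein-coding genes. Peg3 lies at chr7:6703892-6730431 on the minus strand, Ndn at chr7:62346569-62350262 and Magel2 at chr7:62377010-62381640, both on the plus strand, and Snrpn at chr7:59982495-60140219 on the minus strand. Nnat lies at chr2:157560078-157562522 on the plus strand, inside Blcap, another imprinted gene, which runs on the minus strand. Snurf and Gm38393 overlap Snrpn on its own strand, and Gm32061 overlaps Ndn and Magel2 on the opposite strand. Whether counting used strand is not given in the sources used here, so counts of Snrpn cannot be told apart from those of Snurf and Gm38393, nor counts of Nnat from those of Blcap reads falling in the shared span.

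The stretches before 4 of the gene starts are shown because 3 of them share a short motif, with Peg3 as one that lacks it. They are the 250 bases before a RefSeq gene start on GRCm38.p6, written 5′ to 3′ on the strand of the gene, with each match to CGCATGCG in capitals. These letters read the same on both strands and are the core of the motif known for nuclear respiratory factor 1.
Ndn, chr7:62348027-62348276, plus strand: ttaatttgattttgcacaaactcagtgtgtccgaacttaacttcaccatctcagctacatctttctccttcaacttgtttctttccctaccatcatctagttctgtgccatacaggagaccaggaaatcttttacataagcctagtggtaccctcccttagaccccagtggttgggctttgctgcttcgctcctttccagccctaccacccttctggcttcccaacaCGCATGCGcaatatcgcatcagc
Nnat, chr2:157559828-157560077, plus strand: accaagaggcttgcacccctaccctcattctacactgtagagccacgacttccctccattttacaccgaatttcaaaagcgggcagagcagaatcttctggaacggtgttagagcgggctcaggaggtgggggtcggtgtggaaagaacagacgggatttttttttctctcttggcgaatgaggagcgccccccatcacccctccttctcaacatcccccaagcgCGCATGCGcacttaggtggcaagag
Snrpn, chr7:60140226-60140475, minus strand: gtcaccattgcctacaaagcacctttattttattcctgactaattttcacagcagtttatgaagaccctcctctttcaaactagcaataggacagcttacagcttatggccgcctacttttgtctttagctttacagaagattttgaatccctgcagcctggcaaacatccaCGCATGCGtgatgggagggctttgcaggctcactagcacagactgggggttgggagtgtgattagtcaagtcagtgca
Peg3, chr7:6730420-6730669, minus strand: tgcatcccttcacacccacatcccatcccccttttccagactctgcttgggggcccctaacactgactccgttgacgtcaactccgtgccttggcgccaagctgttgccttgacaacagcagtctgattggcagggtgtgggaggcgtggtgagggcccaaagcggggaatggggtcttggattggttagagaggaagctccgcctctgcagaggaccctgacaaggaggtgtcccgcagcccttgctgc
The Ndn stretch lies inside the longer GENCODE span of that gene. The match starts 23 bases before the gene start in Ndn, 25 before it in Nnat and 78 before it in this start of Snrpn. RefSeq gives Snrpn 4 starts, and each of their windows, from 250 bases before to 50 after the start, held 1 match. No match was found in the windows of Peg3 and Magel2. Of 32851 such windows over all genes, 1.87% held the motif, or 2.07% of 27025 genes. The 300-base windows of Ndn, Nnat, Peg3 and Magel2 held 11, 17, 13 and 10 CpG dinucleotides and the 4 Snrpn windows 2 to 7 (3 in the one shown), beside a median of 7 over all windows. The motif was chosen after the sequences were seen, and a match is a run of letters, not a binding site.

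The 4 libraries held 2640399 to 5652342 UMIs in 1800 to 3600 barcodes. Of these, 4181 barcodes with at least 400 genes, at most 10% mitochondrial UMIs and no doublet call were kept as cells; 11 barcodes occurred in more than 1 library, and 0 of them were kept in more than 1. Cells were gated by UMIs of marker genes, none of them among the 6 genes: 2499 were neurons (59.8%), 911 oligodendrocytes, 141 oligodendrocyte precursors, 375 astrocytes and 71 vascular cells, and microglia (10 cells) and fibroblasts (6) were too few to use. Among the 10 genes with the largest fold in each class were 3 to 5 of its own markers and 0 of another class. Genes outside the gates followed them: Mbp, a myelin gene, averaged 10131 CPM (a gene's UMIs relative to all UMIs of the class, on the usual CPM scale) in oligodendrocytes and 79.1 in neurons, Slc1a3, an astrocyte glutamate transporter, 5935 in astrocytes and 5.10 in neurons, and Igfbp7, a vascular gene, 3177 in vascular cells and 1.18 in neurons. The median neuron held 3230 UMIs, the median oligodendrocyte 1387, precursor 1000, astrocyte 823 and vascular cell 816.

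Peg3, Ndn, Snrpn and Impact were far higher in neurons than in any glial class or in vascular cells, Magel2 was found almost only in neurons, and Nnat levels in astrocytes and precursors overlapped those of neurons while oligodendrocytes had little. Levels below are CPM of the UMIs summed over the cells of a class in 1 library, and each gene is compared only with itself. A level is a share of the RNA captured, so it does not show molecules per cell.

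Peg3 stood at 1379, 1775, 1828 and 1729 CPM in neurons of libraries 1 to 4. It stood at 89.5, 133, 79.7 and 125 CPM in oligodendrocytes, at 276, 233, 338 and 341 in astrocytes, and at 204, 538, 398 and 461 in precursors. Neurons did not overlap any other class, and library 1 was the lowest of the 4 in neurons and in precursors. Vascular cells held 2 Peg3 UMIs in all.

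Ndn stood at 623, 627, 587 and 631 CPM in neurons, or 617 ± 20.1 (SD, n = 4). The oligodendrocyte values were 30.5, 30.2, 42.4 and 24.3 CPM, and the astrocyte values 55.3, 41.1, 9.93 and 15.5, from 11 UMIs in all. Precursors had 40.7, 71.8, 39.8 and 128 CPM, also from 11 UMIs. The glial classes overlapped one another, and none came near the neurons.

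Snrpn stood at 844, 800.4, 555 and 713 CPM in neurons and at 139, 139, 82.2 and 83.3 in oligodendrocytes. In both classes libraries 1 and 2 were above libraries 3 and 4. Astrocytes had 64.5, 41.1, 59.6 and 77.5 CPM, below the oligodendrocytes of every library, and precursors 81.4, 215, 59.6 and 51.2, which overlapped both.

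Impact lies at chr18:12955852-12992950 on the plus strand. It stood at 903, 1165, 824 and 903 CPM in neurons, 74.3, 75.6, 67.3 and 65.9 in oligodendrocytes, 61.1, 179, 99.4 and 102 in precursors and 73.7, 109.5, 99.3 and 124 in astrocytes. Library 2 was the highest in neurons and in precursors, and the glial classes overlapped. Vascular cells held 5 Impact UMIs.

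**Figure D1:**
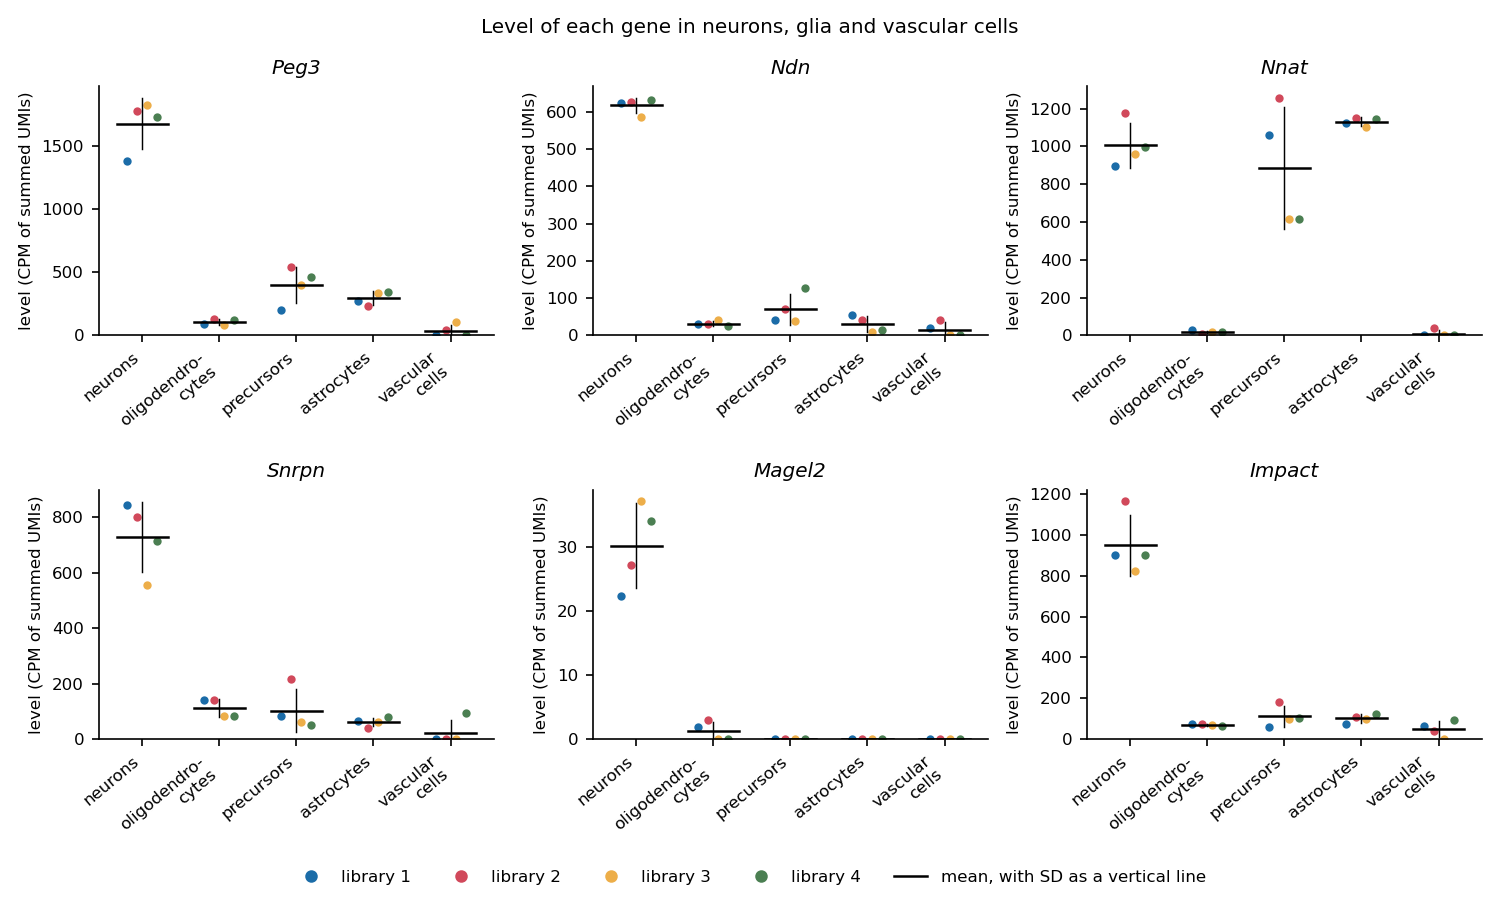
Level of each gene (CPM of summed UMIs, linear axis from 0, a different range in each panel) in neurons, oligodendrocytes, precursors, astrocytes and vascular cells. Each point is 1 of the 4 libraries, the horizontal line is their mean and the vertical line the SD; neurons lie above every other class in the panels of Peg3, Ndn, Snrpn, Magel2 and Impact, while the Nnat points of neurons (895 to 1175 CPM), precursors (615 to 1256) and astrocytes (1102 to 1150.1) overlap.

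These sums were tested with edgeR's quasi-likelihood test on all genes that passed its filter on low counts, 3479 genes, with the library as a block and Benjamini-Hochberg adjustment. Against the mean of the 4 other classes, 5 of the 6 genes were tested and all 5 were higher in neurons at an adjusted p of 0.05, where 72.6% of all genes passed, 50.1% higher and 22.5% lower (1744 and 783 genes, or 1380 and 1019 with upper quartile scaling). The log2 fold changes were 3.77 for Peg3 (SE 0.14), 4.22 for Ndn (SE 0.17), 3.93 for Snrpn (SE 0.17), 3.65 for Impact (SE 0.14) and 3.14 for Nnat (SE 0.17). Their median was 3.77, beside 0.46 over all genes. That median over all genes moved to 0.13 with upper quartile scaling, a shift much smaller than any of the 5 changes. The adjusted p was 3.09e-76 or less for each of the 5; such values rest on a spread shared across genes, and over 4 libraries alone an exact sign-flip test cannot go below 0.125. Vascular cells, with 0 to 5 UMIs of each gene, weigh on this mean, and without them the 5 stayed higher in neurons, at log2 fold changes of 2.71 for Peg3, 3.76 for Ndn, 2.94 for Snrpn, 3.23 for Impact and 1.75 for Nnat, where 41.0% of 6202 genes were higher.

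Class by class, Peg3 was 3.81 higher on the log2 scale in neurons than in oligodendrocytes, 2.36 higher than in precursors and 2.32 higher than in astrocytes. For Ndn the same differences were 4.07, 3.45 and 4.12, for Snrpn 2.52, 3.23 and 3.43, and for Impact 3.54, 3.41 and 3.10. Each of these 12 differences passed the test and was positive in 4 of 4 libraries. Higher in neurons were 49.0% of all genes against oligodendrocytes (31.0% lower), 34.7% against precursors and 43.1% against astrocytes.

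Nnat had a pattern of its own. In neurons it stood at 895, 1175, 958 and 997 CPM and in astrocytes at 1124, 1150.1, 1102 and 1148. Precursors had 1059, 1256, 616 and 615 CPM, close together within libraries 1 and 2 and within libraries 3 and 4. Oligodendrocytes had 26.7, 9.07, 17.4 and 20.8 CPM, and vascular cells held a single Nnat UMI. Oligodendrocytes were thus below precursors, astrocytes and neurons in 4 of 4 libraries, by 5.50 on the log2 scale against neurons (SE 0.20).

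Against astrocytes, Nnat in neurons differed by -0.33 on the log2 scale (SE 0.13, edgeR adjusted p = 0.0176), where 30.2% of genes were lower in neurons. Within libraries 1 to 4 the difference in log2 CPM was -0.33, 0.03, -0.20 and -0.20 (exact two-sided sign-flip p = 0.25). The direction turned to 0.37 (adjusted p = 0.211) with at least 800 genes per barcode, which left few astrocytes, and no call was made with library totals alone as the scaling (-0.12, adjusted p = 0.407). Against precursors the difference was 0.45 (SE 0.16, adjusted p = 0.0124), but it was -0.24, -0.10, 0.64 and 0.70 within the libraries (exact two-sided sign-flip p = 0.5), and upper quartile scaling gave 0.12 (adjusted p = 0.553), and the call was lost without library 3 (0.29) or 4 (0.37).

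Among the non-neuronal classes, Nnat, Peg3 and Snrpn differed at an adjusted p of 0.05 and Ndn (adjusted p = 0.418) and Impact (adjusted p = 0.201) did not, in an edgeR F-test in which 76.0% of all genes passed. With vascular cells left out, Nnat was 3.25 higher on the log2 scale in astrocytes than in the mean of precursors and oligodendrocytes (SE 0.17), and 19.3% of genes were higher there. Nnat was 2.01 higher in precursors than in the mean of the other 2 glial classes (SE 0.21), with 15.6% of genes higher. Peg3 was 0.71 higher in astrocytes (SE 0.21, adjusted p = 0.00325) and fell by 1.28 in oligodendrocytes (SE 0.19), where 23.2% of genes were lower. Astrocytes were not the glial class with the most Peg3. Its mean level was 400 CPM in precursors and 297 in astrocytes, whose libraries overlapped, and 107 in oligodendrocytes. Snrpn was 0.99 higher in oligodendrocytes than in the mean of astrocytes and precursors (SE 0.27, edgeR adjusted p = 8.43e-04), where 25.4% of genes were higher.

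Magel2 gave 274 UMIs in neurons, at 22.5, 27.3, 37.2 and 34.2 CPM, and 2 UMIs in all other classes together, both in oligodendrocytes. It was at 0 in 375 astrocytes, 141 precursors and 71 vascular cells. Pooled over libraries, its level in neurons was 30.4 times that of the 4 other classes, with a 95% counting interval of 8.34 to 253. Taking 3 counts of each class total as the limit that a count of 0 allows, pooled over libraries, Magel2 was at least 3.27-fold higher in neurons than in astrocytes and at least 1.57-fold higher than in precursors; in vascular cells the limit, 32.6 CPM, lies above the neuron level. Magel2 did not pass the low-count filter and was not tested between classes. Intervals and limits cover counting error only.

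RNA of neurons can enter droplets of other cells, and 12 neuron genes that served in no gate show how much was found there. In oligodendrocytes these genes stood at a median of 2.05% of their neuron level and at most at 6.77% (Syn1). Pooled over libraries, Snrpn stood at 15.0% of its neuron level there and Impact at 7.53%, above all 12, while Peg3 (6.40%), Ndn (5.22%) and Nnat (1.97%) were within their range. In astrocytes the 12 genes had a median of 2.62% and a maximum of 7.31% (Syp), and Nnat (114%), Peg3 (18.5%), Impact (10.4%) and Snrpn (7.95%) were above it. For neurons over astrocytes, the counting interval of Syp (6.63 to 34.1) overlapped those of Snrpn (8.22 to 20.3) and Impact (6.89 to 13.9). It just met that of Peg3 (4.46 to 6.64) and lay apart from that of Nnat (0.790 to 0.969). In precursors the 12 genes reached 31.8% (Scn2a1, which precursors are known to express) with a median of 10.7%, and Nnat alone, at 86.7%, was above their range. Neuron genes were thus seen in glial barcodes at low levels, and the values of Ndn in all 3 glial classes, and of Peg3, Snrpn and Impact in precursors, lie within the range of such genes; how much of them comes from the glial cells was not tested.

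**Figure D2:**
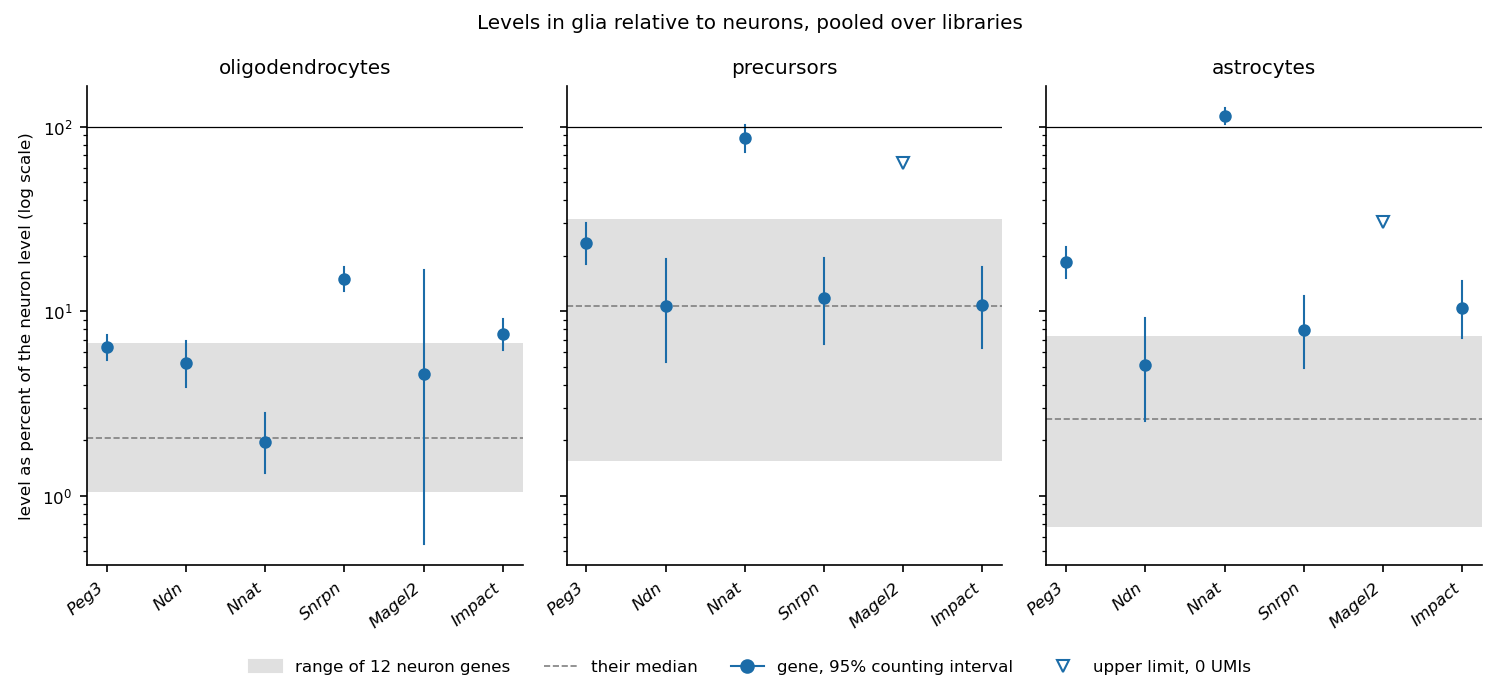
Level of each gene in oligodendrocytes, precursors and astrocytes as a percent of its level in neurons, pooled over 4 libraries (log axis; bars are 95% counting intervals, and open triangles are the limit a count of 0 allows). The grey band is the range of 12 neuron genes that served in no gate and the dashed line their median; Nnat lies near the 100% line in precursors (86.7%) and astrocytes (114%) and inside the band in oligodendrocytes (1.97%), where Snrpn (15.0%) lies above it.

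The counts of 2 genes in 1 class do not depend on depth when taken as a ratio. There were 0.613 Nnat UMIs for each Peg3 UMI in neurons (0.524 to 0.662 over the libraries), 3.80 in astrocytes (3.26 to 4.94), 2.25 in precursors (1.33 to 5.20) and 0.189 in oligodendrocytes (0.0682 to 0.298). In the 5652 barcodes with fewer than 400 genes the ratio was 0.708 (0.570 to 1.05). The astrocyte and precursor ratios were above, and the oligodendrocyte ratio below, those of neurons and of low barcodes in all 4 libraries.

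The share of cells with a UMI was compared at equal depth. At 1000 UMIs per cell, leaving out shallower cells, 50.3% ± 3.92 of neurons held a Nnat UMI (SD, n = 4; 2159 cells, 340 left out), and so did 57.3% ± 3.05 of astrocytes (n = 3; 112 cells, 263 left out), 51.7% ± 11.4 of precursors (n = 3; 71 cells) and 2.04% ± 0.946 of oligodendrocytes (n = 4; 696 cells). At full depth the share of cells with a Nnat UMI was 70.3% in neurons and 52.5% in astrocytes, whose median depths were 3230 and 823 UMIs. The most Nnat UMIs in a cell were 65 in a neuron, 9 in an astrocyte and 2 in an oligodendrocyte.

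At 1000 UMIs a Peg3 UMI was found in 74.9% ± 3.43 of neurons, 18.7% ± 7.55 of astrocytes and 10.1% ± 2.16 of oligodendrocytes. For Impact the shares were 56.2% ± 4.43 of neurons and 5.74% ± 0.837 of oligodendrocytes, for Snrpn 49.3% ± 6.73 and 9.86% ± 2.36, and for Ndn 35.2% ± 1.53 and 2.74% ± 0.699. Magel2 was found in 3.01% ± 0.681 of neurons at 1000 UMIs and in 9.60% at full depth. In 0 of 375 astrocytes was there a Magel2 UMI, which allows a share of cells with a UMI of up to 0.8%; at their median of 823 UMIs this does not limit the share of cells that express the gene.

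**Figure D3:**
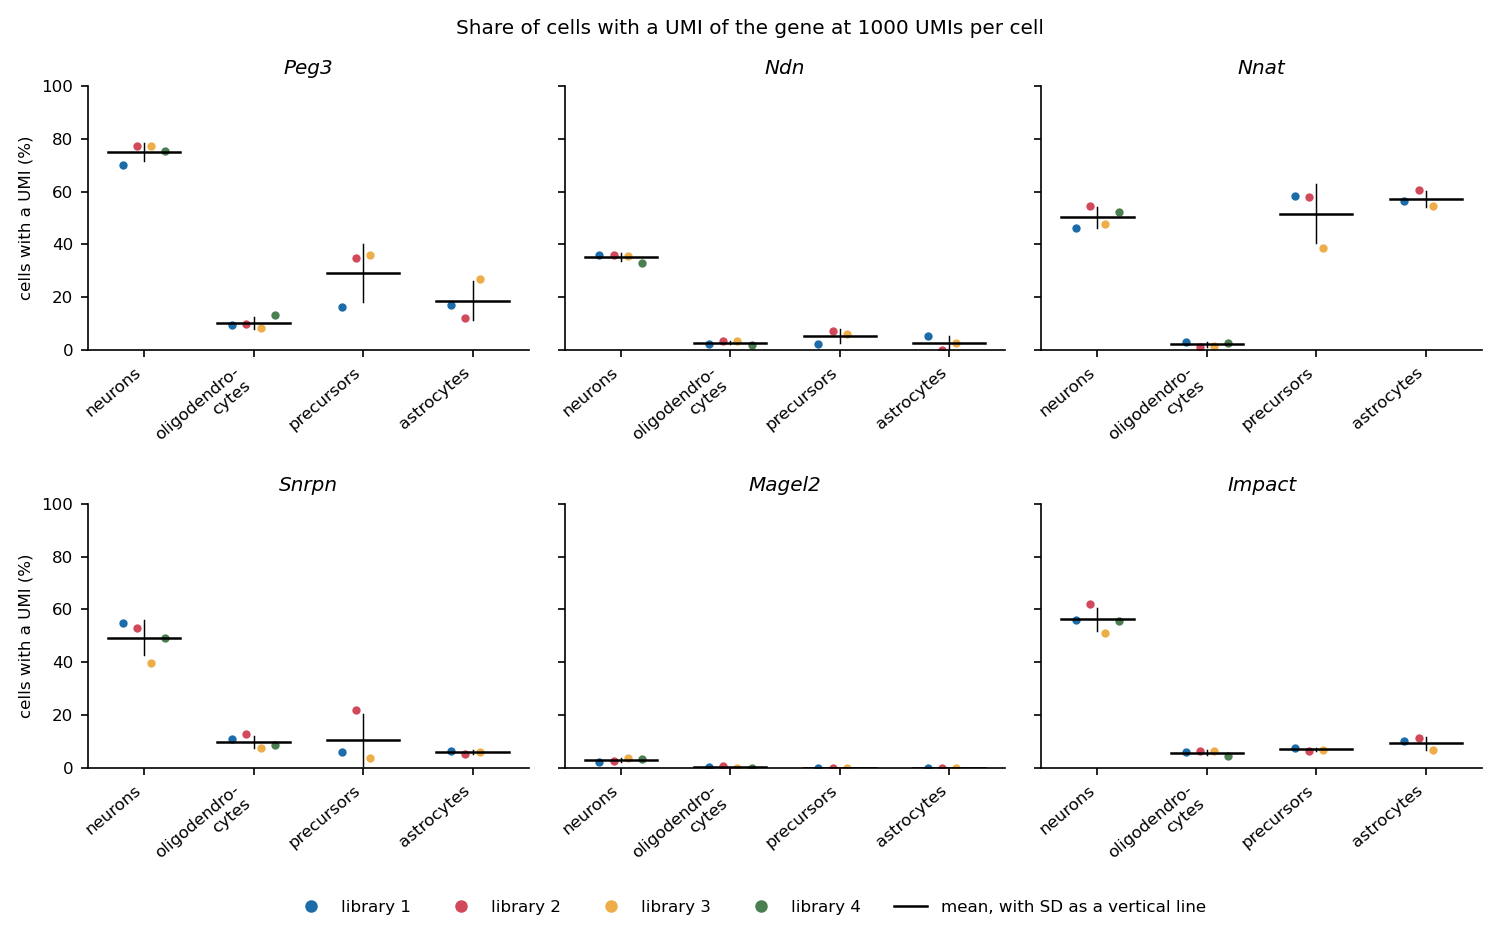
Share of cells with a UMI of each gene (percent, axis from 0 to 100) after each cell is taken at 1000 UMIs, in neurons, oligodendrocytes, precursors and astrocytes. Points are libraries with at least 10 such cells, horizontal lines their mean and vertical lines the SD; for Nnat the neurons (50.3%), precursors (51.7%) and astrocytes (57.3%) lie far above the oligodendrocytes (2.04%), while for the other genes the neurons lie above all glia.

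Between the transmitter classes, Ndn was lower and Nnat higher in GABAergic than in glutamatergic neurons, in the test as set, and the other 4 genes gave no call. Neurons were called GABAergic (2164 cells) or glutamatergic (81 cells) by UMIs of vesicular transporter and synthesis genes. Library 3 held 7 glutamatergic cells and was left out, so n = 3. Ndn stood at 582, 624 and 610.2 CPM in GABAergic and at 1011, 827 and 1168 in glutamatergic neurons of libraries 1, 2 and 4, with no overlap. The difference was -0.64 on the log2 scale (SE 0.15, edgeR adjusted p = 0.0014). Nnat stood at 929, 1178 and 1021 CPM in GABAergic and at 526, 1116 and 435 in glutamatergic neurons, where library 2 overlapped the GABAergic values, and differed by 0.70 (SE 0.15, adjusted p = 7.40e-04). Of 9457 genes tested 2.13% passed, 1.22% higher and 0.909% lower, beside 2 of the 6; but neither call held with DESeq2 (adjusted p = 0.218 for Ndn and 0.416 for Nnat), without library 1 or 4, or without the library block. In the 7 glutamatergic cells of library 3, Ndn stood at 577 CPM, as in the GABAergic neurons of that library (577), and Nnat at 553 (GABAergic 986).

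Of the other 4 genes, log2 differences were -0.14 for Peg3 (SE 0.13), -0.11 for Snrpn (SE 0.15) and 0.11 for Impact (SE 0.14), with adjusted p of 0.87 or more. Magel2, with 10 UMIs in glutamatergic neurons, differed by 0.62 with an SE of 0.59 (adjusted p = 0.867), too wide an error to place it.

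Among GABAergic neurons, 5 of the 6 genes varied across subtypes, and the pattern of Nnat was again apart. Subtypes were gated by UMIs of 1 or 2 marker genes, and 12 entered an edgeR F-test over 5034 genes, of which 31.8% passed. The adjusted p was 1.00e-12 for Peg3, 1.00e-12 for Impact, 5.21e-13 for Nnat, 3.75e-05 for Snrpn and 6.97e-05 for Ndn. For Magel2 it was 0.0656, with 4 to 36 UMIs in a subtype. A second test compared each subtype with the average of the other 11.

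The lowest mean levels of Peg3, Impact and Ndn were in cells with UMIs of Ppp1r1b and Crym, genes of the spiny neurons of the striatum (146 cells). Peg3 stood there at 812, 956, 858 and 836 CPM. In all other subtypes with at least 10 cells it ran from 1274 to 2549.8 CPM, with no overlap. Impact stood at 486, 516, 381 and 426 CPM, below every other subtype in libraries 1, 3 and 4. Ndn, at 362, 580.3, 402 and 197 CPM, and Snrpn, at 600.2, 645, 222 and 426, overlapped other subtypes.

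Against the mean of the other subtypes the log2 differences in these cells were -0.96 for Peg3 (SE 0.10), -0.99 for Impact (SE 0.12), -0.65 for Ndn (SE 0.17) and -0.55 for Snrpn (SE 0.13), with edgeR adjusted p of 0.00269 or less. Of all genes 22.5% passed in this comparison and 8.66% were lower, beside 4 of the 6. Nnat, at 1138, 1118, 985 and 923 CPM, differed by 0.15 (SE 0.13, adjusted p = 0.469), within the range of the other subtypes; without library 2 it passed as higher (0.38, adjusted p = 0.0424). Magel2 differed by -1.38 with an SE of 0.58 (adjusted p = 0.0759), from 6 UMIs. The median depth of these cells was 3233.5 UMIs, near the low end of the 12 subtypes (2419.5 to 5895), with only Tshz1 and Foxp2 cells shallower. With every cell thinned to 1000 UMIs the differences were -0.80, -0.98 and -0.74 for Peg3, Impact and Ndn, still past the threshold, and -0.41 for Snrpn (adjusted p = 0.336); without library 4 the call of Ndn was lost (-0.41).

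Nnat was highest in cells with UMIs of Prkcd, a protein kinase C gene that marks a class of extended amygdala neurons. Library 2 had 12 such cells and a level of 2989.5 CPM, and the other libraries, with 7, 3 and 7 cells, had 4188, 2942 and 2933 CPM. Elsewhere no subtype was above 1646 CPM in any library. The test could use library 2 alone, so these cells have no spread of their own and every p for them assumes that they vary like the other subtypes. It gave a difference of 1.58 (SE 0.23, edgeR adjusted p = 2.57e-07), with 3.22% of genes higher and 1.49% lower. In the same cells Impact differed by -1.19 (SE 0.27, adjusted p = 0.00211) and Snrpn by -1.27 (SE 0.31, adjusted p = 0.00567). Snrpn stood at 336 CPM in library 2 and at 361, 412 and 256 in libraries 1, 3 and 4, and Impact at 473, 721, 412 and 569. After thinning to 1000 UMIs the calls of Snrpn (-3.12, adjusted p = 0.0556) and Impact (-0.34, adjusted p = 0.866) were lost and that of Nnat was kept (1.45). Without the library block the calls of Snrpn (-1.14, adjusted p = 0.116) and Impact (-0.97, adjusted p = 0.137) were lost too.

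Nnat was also higher in cells with UMIs of Crh and Wif1, at 1408, 1488, 1188 and 1348 CPM, a difference of 0.54 (SE 0.12, adjusted p = 6.96e-04; 4.45% of genes higher). It was lower in 3 subtypes. Cells with Tac2 and Ebf1 stood at 524, 499.6 and 536 CPM in libraries 1, 2 and 4, with a difference of -0.97 (SE 0.15, adjusted p = 2.24e-06; 0.715% of genes lower), though the 9 cells of library 3, too few for the test, stood at 1027. Cells with Slc17a8, the vesicular glutamate transporter also carried by some GABAergic neurons, stood at 790.3, 705, 487 and 546 CPM and differed by -0.71 (SE 0.16, adjusted p = 0.00105; 1.89% lower). Cells with Tshz1 and Foxp2 stood at 488, 489, 594 and 987 CPM and differed by -0.69 (SE 0.16, adjusted p = 0.00301; 0.318% lower); without library 2 this call was lost (-0.38), as was that of the Slc17a8 cells (-0.51). The call in the Crh and Wif1 cells was lost without the library block (0.50, adjusted p = 0.0904), at 5% mitochondrial UMIs (0.39, adjusted p = 0.113) and after thinning (0.40, adjusted p = 0.14).

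**Figure D4:**
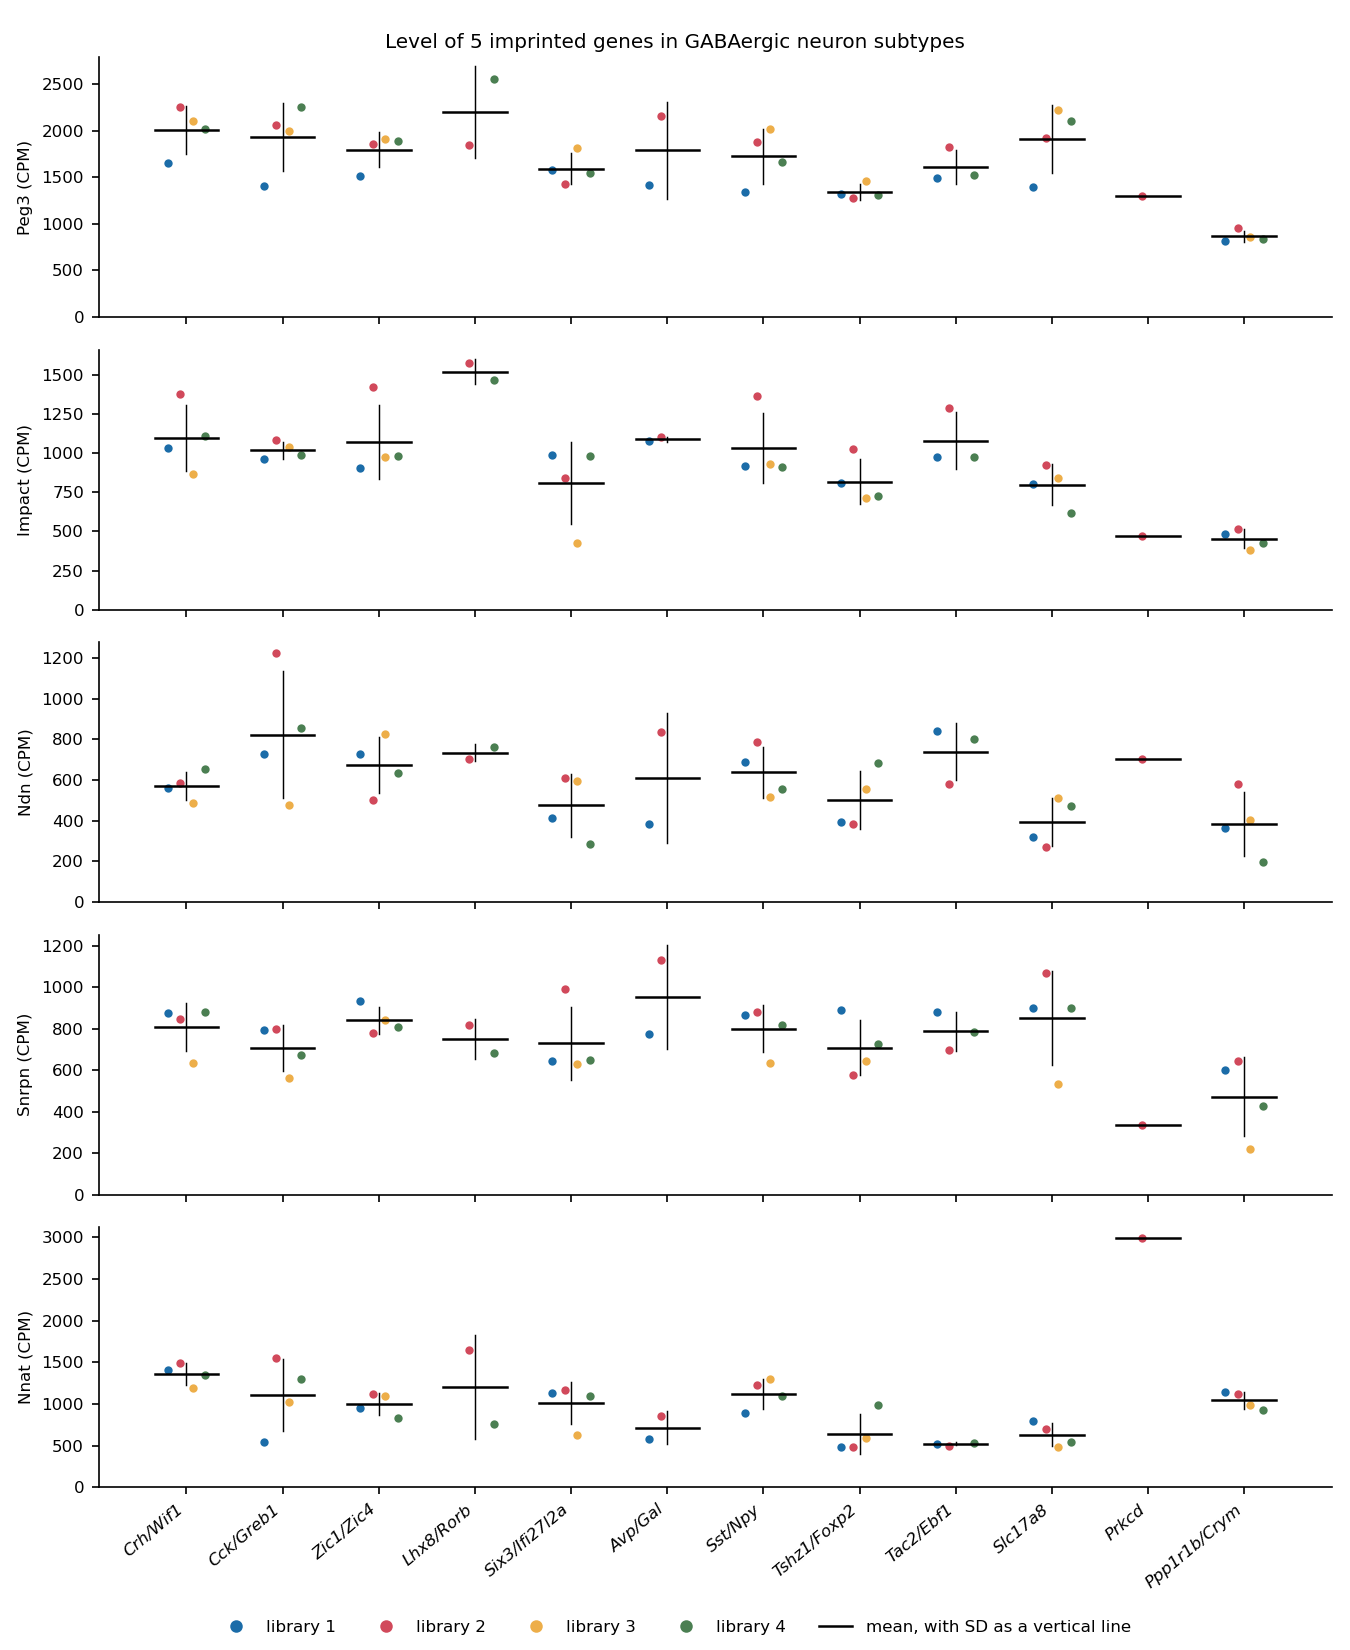
Level (CPM of summed UMIs, axes from 0) of Peg3, Impact, Ndn, Snrpn and Nnat in 12 subtypes of GABAergic neurons named by their marker genes; points are libraries with at least 10 cells, horizontal lines their mean and vertical lines the SD. The Ppp1r1b and Crym cells lie lowest for Peg3 (812 to 956 CPM) and the Prkcd cells, with 1 point, highest for Nnat (2989.5 CPM).

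The highest Impact levels were in cells with UMIs of Lhx8 and Rorb, at 1578 and 1466 CPM in libraries 2 and 4, a difference of 0.72 (SE 0.15, adjusted p = 4.13e-04; 2.30% of genes higher). The 12 such cells of libraries 1 and 3, too few for the test, had 1336 CPM together, and the call was lost without library 2 or without library 4, each of which left 1 sum. Crh and Wif1 cells were higher in Impact by 0.37 (SE 0.09, adjusted p = 0.00656) and in Peg3 by 0.33 (SE 0.08, adjusted p = 0.00365); both calls were lost without library 2, at 0.21 and 0.25, and the Impact call also without library 4 (0.33). Without the block, at 5% mitochondrial UMIs and after thinning both were lost as well, at 0.22 to 0.33 for Impact and 0.23 to 0.34 for Peg3. In cells with Cck and Greb1, Ndn stood at 726, 1226, 478 and 857 CPM and was called higher by 0.48 (SE 0.14, adjusted p = 0.0185; 5.50% of genes higher), with Peg3 (0.26, adjusted p = 0.036) and Impact (0.29, adjusted p = 0.0489) just past the threshold; each of these 3 calls was lost when any of 3 libraries was left out. Ndn was just past the threshold in Slc17a8 cells too, at 321, 270.1, 509 and 475 CPM (-0.59, SE 0.19, adjusted p = 0.0496), and that call was lost without library 1 or 2.

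Ordered by mean level, most neighbouring subtypes overlapped. For Peg3 the order ran from Lhx8 and Rorb cells (2198 CPM) through Crh and Wif1 cells (2007) to Tshz1 and Foxp2 cells (1341), Prkcd cells (1296) and Ppp1r1b and Crym cells (866), and only the last step had no overlap. For Snrpn no neighbouring pair was apart, from Avp and Gal cells (953) to Prkcd cells (336). For Magel2 none was apart either; its mean ran from 76.3 CPM in Prkcd cells of library 2, from few UMIs, through 57.3 ± 45.4 in Zic1 and Zic4 cells and 54.4 ± 15.8 in Cck and Greb1 cells to 13.2 ± 14.0 in Ppp1r1b and Crym cells. The 17 Prkcd cells of libraries 1, 3 and 4, which did not enter this order, held 1 Magel2 UMI together (9.80 CPM).

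Other imprinted genes were taken from a list of 41, of which 35 were in the count tables and 12 passed the low-count filter. Of those 12, 9 were higher in neurons than in the mean of the 4 other classes and 1 was lower, beside 50.1% and 22.5% of all genes, with a median log2 fold change of 1.79 beside 0.46. The highest were Zdbf2 (5.79, SE 0.31), Rasgrf1, an exchange factor for Ras (4.88, SE 0.31), and Nap1l5, a nucleosome assembly relative (3.91, SE 0.12). Blcap, in which Nnat lies, was higher by 2.42 (SE 0.16), followed by Gnas, the stimulatory G protein subunit (2.14, SE 0.10), and Ppp1r9a, an actin binding protein of synapses (1.90, SE 0.15). Cdkn1c, a cell cycle inhibitor, was lower in neurons by -3.21 on the log2 scale (SE 0.91, edgeR adjusted p = 7.39e-04). It had 35 UMIs in neurons and 81 in the other classes. At 3.67 CPM in neurons, it passed the filter only through classes where it was high (115 CPM on average). With no filter the difference was -3.03 (SE 0.83). It was -5.39 against vascular cells, -3.97 against precursors and -3.11 against oligodendrocytes, but 0.37 against astrocytes (SE 1.38). Atp10a (0.40, SE 0.50) and Commd1 (0.23, SE 0.21) gave no call against that mean, but their differences varied by class. With no filter, Atp10a differed by -5.21 against vascular cells (SE 0.67). Against oligodendrocytes (3.91, SE 1.74), precursors (-0.38, SE 1.68) and astrocytes (3.90, SE 3.11) it gave no call. Commd1 differed by -0.77 against oligodendrocytes (SE 0.17) and by 1.28 against astrocytes (SE 0.39). With no filter on low counts, 34 of the list were tested, 21 were higher and 1 was lower, beside 27.9% and 6.24% of all 19494 genes.

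Blcap followed Nnat across classes in part. It was 3.08 higher in neurons than in oligodendrocytes on the log2 scale (SE 0.17), 1.52 higher than in precursors (SE 0.26) and 0.95 higher than in astrocytes (SE 0.19), where Nnat was not higher. Grb10, Usp29 and Peg10 did not pass the filter and were picked here after their values were seen. Grb10, a receptor adaptor, gave 1130 UMIs in neurons and 5 in the other classes, or 123 and 3.65 CPM on average. Usp29, a neighbour of Peg3, gave 892 and 7 UMIs (94.6 and 3.24 CPM), and Peg10 gave 1468 and 26 (155 and 18.4 CPM). Other genes of the list that did not pass the filter went the other way. Mkrn3 gave 1 UMI in neurons and 11 elsewhere, Igf2 gave 1 and 9, and Peg12 gave 0 and 3.

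Partner genes of the 6 came from a list of 27. Of 13 tested, 10 were higher in neurons than in the mean of the 4 other classes and 0 were lower, beside 50.1% and 22.5% of all genes. The median log2 fold change was 0.69. With vascular cells left out, 10 of 18 were higher and 1 was lower (median 0.44), beside 2542 and 1761 of 6202 genes. Against precursors alone, 4 of 13 were higher and 3 lower, beside 1208 and 857 of 3479 genes. The values below are against the mean of the 4 classes unless another class is named. Among MAGE relatives, Magee1 was higher by 2.95 (SE 0.23) and Maged1 by 2.48 (SE 0.12). Vps29 (1.13, SE 0.17) and Vps35 (0.81, SE 0.18), subunits of the retromer, were higher as well. So were Snrpd1 (1.28, SE 0.18) and Snrpd3 (0.96, SE 0.18), which form the Sm ring with SmN. Against precursors, 0 of the 4 Sm genes tested, Snrpd1 and Snrpd3 among them, were higher and 1 was lower. Snrpb, the relative of Snrpn, differed by -0.31 (SE 0.17, adjusted p = 0.086; DESeq2 called it lower, the only partner it did) and was lower in neurons than in oligodendrocytes by -0.67 (SE 0.15, adjusted p = 8.32e-06), while Snrpn was higher there by 2.52.

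**Figure D5:**
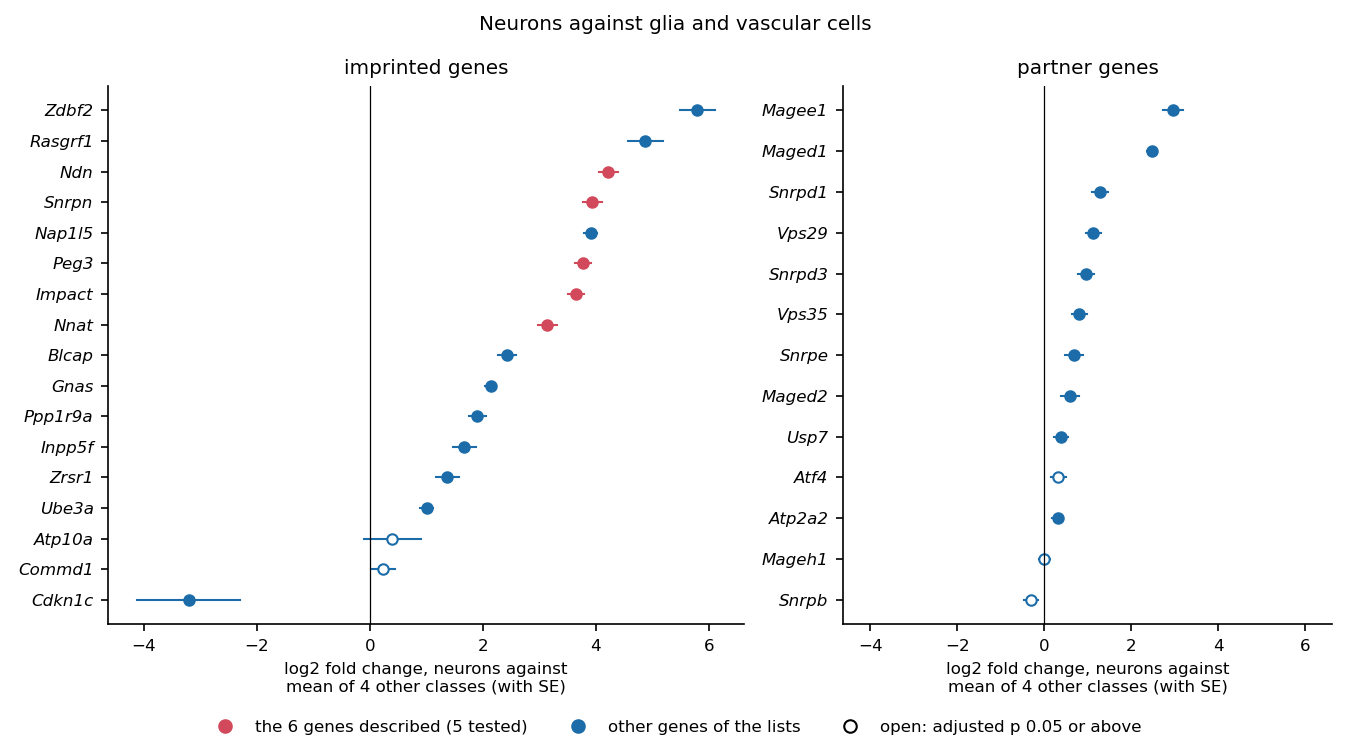
Log2 fold change of neurons against the mean of the 4 other classes, with its SE, for the tested imprinted genes (left) and partner genes (right); red points are the 5 tested genes of the 6 described, and open points did not pass an adjusted p of 0.05. Red points lie between 3.14 and 4.22, Zdbf2 (5.79) and Rasgrf1 (4.88) above them and Cdkn1c (-3.21) at the far left.

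In the comparison of GABAergic with glutamatergic neurons, 0 of 23 other imprinted genes and 0 of 24 partners passed in edgeR. At an unadjusted edgeR p under 0.05 were 5 and 0, beside 855 of all 9457 genes. DESeq2 called 0 in both lists. With 2.13% of all genes called, a count of 0 does not set lists of this length apart. Across GABAergic subtypes, 9 of 19 other imprinted genes and 3 of 18 partners passed, beside 31.8% of all genes. In Ppp1r1b and Crym cells, 3 of 19 other imprinted genes were higher and 2 lower, and 0 of 18 partners were higher and 2 lower, beside 13.8% and 8.66% of all genes.

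Over the mean log2 levels of 14 groups of cells, the genes most like each of the 6 were counted among 11881 genes, as a description, since most groups are neurons and come from the same libraries. Pearson's r was 0.99 for Araf, Zcchc18 and Nicn1 with Peg3, 0.99 for Pld3, Lonrf2 and Vsnl1 with Ndn, and 0.99 for Pja1, Skp1a and Atp6v1c1 with Snrpn. For Impact the 3 were Nrsn1, Fkbp3 and Napb, and Magel2 had 0.98 with Prlr and 0.96 with Golga7b. For Nnat they were Gpm6a, Strbp and Apba2 (0.99 to 0.98). Between the 6 genes themselves r ran from 0.54 for Nnat with Magel2 to 0.99 for Ndn with Impact, and Nnat had 0.75 with Ndn and 0.76 with Impact.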

How the data were processed

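The authors deposited 1 table of raw UMI counts (genes by barcodes) for each of 4 Drop-seq libraries. Per the submitters' processing notes, bcl2fastq 2.18.0.12, STAR 2.4.2a and Picard 2.2.4 were used with the mouse builds mm10 and GRCm38; the annotation, counting strand and rule for choosing barcodes are not given in the sources used here. Positions come from GENCODE vM21, in which 18830 of 20136 gene names (93.5%) were found, and sequences from RefSeq on GRCm38.p6, in which 5 of the 6 genes are used here.

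Barcodes were kept with at least 400 genes and at most 10% mitochondrial UMIs, and Scrublet in scanpy 1.11.5 (expected rate 0.05) removed 58 of 4239 (1.37%). A cell entered a class with at least 3 UMIs of its markers and no other class above 25% of them. Transmitter classes and subtypes needed at least 2 UMIs and no other above 50%. Raw counts were summed over the cells of a class and library, from at least 10 cells, and compared by the quasi-likelihood test of edgeR 4.0.16 (R 4.3.3), after filterByExpr and with TMM scaling. The library entered as a block, because the sums of a library come from 1 pool of mice. A standard error is the log2 difference divided by the root of its F statistic. DESeq2 1.42.0, other scalings, filters, gates and depths, and leaving out each library were alternatives.

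Levels are CPM of summed counts, with 1 CPM added before log2 in within-library differences and likeness. On simulated counts, drawn with the means of the real genes and 200 genes altered 2-fold, the test found 67.5% of them for neurons against other classes (2337 genes), 31% for the transmitter classes (9175 genes, 6.06% wrong calls) and 74.5% for Cck and Greb1 cells (4151 genes). Apart from the altered genes, all groups had the same means there, and no library effect was added. These rates therefore do not describe comparisons in which many genes differ, as between neurons and the other classes. The 6 genes, the marker, imprinted and partner lists and the tests were chosen with earlier results of these data known. Named from the lists were the tested genes past the threshold, at most 6 in each direction, with Snrpb and Blcap in any case; up to 3 genes per gene were named for likeness, and 1 of them is not reported here. Tables and plots were made in Python 3.11.15 using matplotlib 3.10.9, pandas 2.3.3, scipy 1.17.1 and numpy 2.4.6.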

Additional observations from a re-analysis of the deposited data

Results flagged for a closer look

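In a group of 4 libraries, a value stood out when its gap to the nearest other library exceeded Dixon's 95% critical share of the range. Of 105 sets searched, 11 did, where chance would give 5.25 if the sets were independent. They share libraries and cells, so the count of 11 cannot be weighed against that number. The flags of Nnat and Snrpn in vascular cells were fixed in advance, since a single UMI must stand apart from counts of 0. Peg3 was low in library 1 in Zic1 and Zic4 cells (1514 CPM) and stood apart in library 4 in cells with markers of several classes (914 CPM). Ndn was low in neurons of library 3 (587 CPM). Nnat was low in library 3 in Six3 and Ifi27l2a cells (631 CPM) and, in vascular cells, had its only UMI in library 2 (40.4 CPM). Snrpn had its only vascular UMI in library 4 (92.7 CPM), was high in library 2 in Six3 and Ifi27l2a cells (991 CPM) and low in library 3 in Crh and Wif1 cells (636 CPM). Impact was high in library 2 in 3 sets: Sst and Npy cells (1368 CPM), Zic1 and Zic4 cells (1422 CPM) and neurons without a transmitter call (1319.8 CPM).

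All 6 genes were also found in the 5652 barcodes with fewer than 400 genes, which entered no comparison. Their mean levels over the 4 libraries were 959 CPM for Peg3, 260.03 for Ndn, 686 for Nnat, 313 for Snrpn, 16.2 for Magel2 and 493 for Impact, from 19 to 1163 UMIs and above the level that a count of 0 allows, 2.45 CPM. What these barcodes hold was not tested.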

How the results depend on the processing

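Over all alternatives, 532 values that answer a comparison and 1821 values of single contrasts counted as kept. For a test this means the same side of the threshold and, where either fit made a call, the same direction. A change of sign with no call in either fit counted as kept. Gene numbers and shares of cells counted as kept when they stayed near the main value. Among single contrasts 90 lost and 21 gained a call, and 1 call changed direction. That was Nnat in neurons against astrocytes, 0.37 with at least 800 genes per barcode, where 10 or more astrocytes remained in 3 libraries and vascular cells in 1. The calls between GABAergic and glutamatergic neurons were lost without library 1 or 4 and in some other alternatives: for Ndn with DESeq2 (-0.66), with no replicate block (-0.65) and after thinning to 1000 UMIs (-0.40), and for Nnat with DESeq2 (0.71), no replicate block (0.67), at most 5% mitochondrial UMIs (0.37) and thinning (0.68). Leaving out each library gave -0.78 to -0.49 for Ndn and 0.52 to 0.98 for Nnat, and 99 to 201 genes called in that comparison, beside 201 with all. That count was 69 with DESeq2, 133 with no replicate block, 126 at 5% mitochondrial UMIs and 34 after thinning. The Magel2 test across subtypes passed with DESeq2 (statistic 23.8), no low-count filter (F 2.55) and a subtype gate of 3 UMIs (F 2.62), beside 2.19 in the test as set. Genes higher in neurons numbered 5430 with no filter and 3103 with at least 800 genes, beside 1744, and genes lower 1217 and 430, beside 783. Lower genes were 1761 without vascular cells (chosen after seeing the data), 369 at 5% mitochondrial UMIs and 478 after thinning. The non-neuronal classes gave 5701 genes with no filter, beside 2643, and the subtypes 1021 at 5% mitochondrial UMIs and 418 after thinning, beside 1603. Astrocytes with a Nnat UMI at 1000 UMIs were 67.9% at 5% mitochondrial UMIs and 61.5% with other classes at most 10% of own UMIs, beside 57.3%. Apart from the change of gene numbers that a filter makes, the cause was not tested. Depth limits Magel2 and all vascular values, which rest on 0 to 5 UMIs a gene outside neurons.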
